A study of Mus musculus with 12 samples.

Results

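Fibronectin and 9 matricellular proteins were followed in mouse mammary epithelial cells (MECs) with and without an activated Hedgehog pathway. The 10 genes were chosen by name, as a family of proteins: Fn1 (fibronectin), Postn, Tnc, Tnn, Sparc, Sparcl1, Thbs1, Thbs2, Thbs3 and Spon1. They and the gene lists used below were chosen with earlier results of these data known. Counts of genes called among them are therefore descriptions and not independent tests. Each of the 10 was found as 1 entry among the 20114 entries of the deposited count table that name a single locus, and all 10 were among the 14039 loci with enough counts to be tested. Fn1 was counted in 1 entry with AK049041 and Gm15456, Sparcl1 with AK043904, and Tnc with AK038610, AK020205 and AK033210, so reads of these neighbors may be in their counts.

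The libraries were made from total RNA of sorted primary MECs of adult females, 9 weeks old, on a mixed Swiss Webster, 129X1/SvJ and C57BL/6 background, in 3 groups of 4. Recombined cells (mT-mG/SmoM2;MMTV-Cre, SmoM2 positive, EGFP) had turned from red to green and carried active SmoM2, an oncogenic form of the Hedgehog signal transducer Smoothened. Unrecombined cells (mT-mG/SmoM2;MMTV-Cre, SmoM2 negative, tdTomato) had the same genotype and had stayed red. Wild type cells (mT-mG/SmoM2;+) carried the reporter and SmoM2 alleles but no Cre. MMTV-Cre acts in only a fraction of mammary cells, no group was green without SmoM2, and the labels do not say whether cells of several animals were pooled. SmoM2 and the sorted kind of cell therefore cannot be told apart as a source of the differences of recombined cells. Unrecombined cells lack those that turned green, while no such cells were taken out of the wild type cells. Cre genotype and this removal cannot be told apart where these groups are compared. The labels do not tie libraries to animals, so p values measure the spread between these libraries, which may be technical.

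Matricellular proteins are secreted into the matrix but are not its main building blocks: they bind collagens, growth factors and cell surface receptors and tune how cells attach and spread. Fibronectin is an adhesive glycoprotein that cells assemble into fibrils through integrins, and periostin and the tenascins bind to this network. In the mammary gland most fibronectin and periostin comes from stromal fibroblasts, while basal myoepithelial cells line the basement membrane around the luminal cells.

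Total counts lay between 19581993 and 34779433 per library. Levels are given in CPM (counts per 1000000, scaled to effective library size). Smo, the gene of which SmoM2 is a form, was counted without telling the 2 apart. It had 49.1 to 74.7 CPM in recombined, 26.8 to 36.8 in unrecombined and 18.7 to 35.2 in wild type libraries. Its target Ptch1 had 133 to 809, 24.8 to 61.3 and 34.5 to 38.1 CPM in the same order of groups, so the Hedgehog target was higher in every recombined library. The labelled epithelial identity was checked with 12 luminal markers, Epcam and Krt8 among them. Their summed level was 2450 to 4916 CPM in recombined, 5960 to 8024 CPM in unrecombined and 5663 to 9776 CPM in wild type libraries. The sum of 12 fibroblast markers was 212 to 601, 5186 to 7348 and 1422 to 3480 CPM in the same order. In unrecombined libraries the luminal and fibroblast ranges overlapped. Recombined libraries 3 and 4 stood apart on the first principal component of the 1000 most variable loci and had counts in fewer loci (14256 and 14601) than the other libraries (15289 to 16814). The library numbers in the labels fall in 2 series, and recombined 3 and 4, unrecombined 3 and 4 and wild type 4 make up the second. What the series stand for is not stated. Libraries 1 and 2 of both Cre groups and wild type 2 held salivary gland transcripts, with up to 90312 CPM over 11 genes in unrecombined 2, against 46.3 to 71.5 CPM in the other 7 libraries.

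Promoter sequences of 4 members with different patterns are shown to let the patterns below be read beside the DNA: Thbs2 and Postn, which were both low in recombined cells, Tnc, which was high there, and Tnn, which was high in wild type cells. Each is 300 bases from RefSeq (build GRCm38.p6), running 5′ to 3′ from 250 bases before to 50 bases after an annotated start, and is not on the mm9 coordinates of the counts. Capitals mark matches on either strand to 4 short motifs: TATAAA (a spelling of the TATA box), TGANTCA (bound by AP-1), GGAATG (bound by TEAD factors) and GACCACC (the core of the Gli consensus).
Thbs2, chr17:14694213-14694512, minus strand: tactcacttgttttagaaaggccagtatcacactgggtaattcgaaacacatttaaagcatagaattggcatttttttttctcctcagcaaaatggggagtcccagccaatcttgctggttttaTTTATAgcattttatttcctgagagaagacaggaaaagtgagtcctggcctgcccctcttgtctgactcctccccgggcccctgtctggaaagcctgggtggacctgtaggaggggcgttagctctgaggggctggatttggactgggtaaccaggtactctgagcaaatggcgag
Postn, chr3:54360857-54361156, plus strand: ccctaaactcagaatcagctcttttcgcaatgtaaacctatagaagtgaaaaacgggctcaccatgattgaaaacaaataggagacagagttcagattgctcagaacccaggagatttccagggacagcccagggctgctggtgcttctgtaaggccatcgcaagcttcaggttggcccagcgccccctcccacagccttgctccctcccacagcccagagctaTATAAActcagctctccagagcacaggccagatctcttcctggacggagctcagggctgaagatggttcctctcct
Tnc, chr4:64046887-64047186, minus strand: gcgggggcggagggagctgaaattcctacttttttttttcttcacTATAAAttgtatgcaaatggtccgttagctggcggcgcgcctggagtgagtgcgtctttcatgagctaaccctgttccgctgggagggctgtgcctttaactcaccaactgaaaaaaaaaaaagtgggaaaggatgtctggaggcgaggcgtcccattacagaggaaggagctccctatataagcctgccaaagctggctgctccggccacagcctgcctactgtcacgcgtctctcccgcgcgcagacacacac
Tnn, chr1:160153526-160153825, minus strand: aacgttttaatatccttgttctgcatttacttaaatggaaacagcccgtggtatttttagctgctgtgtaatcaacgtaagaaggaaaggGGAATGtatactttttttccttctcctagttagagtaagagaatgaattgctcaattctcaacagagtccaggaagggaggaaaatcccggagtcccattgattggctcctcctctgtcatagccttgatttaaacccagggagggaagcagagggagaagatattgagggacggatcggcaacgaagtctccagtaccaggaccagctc
Postn has a second annotated start with none of the motifs, and Tnc a second start whose window holds the same TATAAA. The TATAAA of Postn began at position -26 from the start and that of Tnc at -205, and Thbs2 had one on the opposite strand at -126. The Tnc window shown also holds tatataag closer to its start. That run is not TATAAA as spelled here and was left in small letters. Tnn held a GGAATG at -160. No window of the 6 members found in the RefSeq table (8 windows, Sparc and Thbs3 included) held TGANTCA or GACCACC as spelled here. Over 32851 promoter windows, 13.6% held TATAAA, 7.81% TGANTCA, 14.7% GGAATG and 2.8% GACCACC. A match is a run of letters and not a measured site.

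Divided by exon length (union of GENCODE M21 exons), Sparc had the highest mean level of the 10 in every group, at 561 CPM per kb in recombined, 693 in unrecombined and 313 in wild type libraries. Thbs1 came next in recombined cells (106 CPM per kb), while Postn came next in unrecombined (238) and wild type cells (99.3). Fibronectin had 1.22 CPM per kb in recombined, 50.9 in unrecombined and 18.4 in wild type libraries. Thbs2 was the lowest of the 10 in recombined cells, at 0.112 CPM per kb, against 13.2 in unrecombined and 4.37 in wild type cells. The 10 genes together took 0.213% to 0.429% of the counts of a recombined library, 0.427% to 0.754% of an unrecombined library and 0.229% to 0.398% of a wild type library.

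How the family differed in SmoM2-positive cells was asked first against wild type cells. In recombined cells 6 members fell, Fn1, Postn, Tnn, Sparcl1, Thbs2 and Spon1, and Tnc rose, by adjusted p under 0.05 in the quasi-likelihood test of edgeR with all 14039 loci. That is 7 of 10 members, where 6.55% of all loci tested were called (4.17% higher, 2.38% lower). The median log2 fold change was -1.57 over the members and -0.02 over all loci. Sparc, Thbs1 and Thbs3 did not pass. DESeq2 called these 7 and Sparc (11.8% of its loci). In bulk RNA, here and below, fewer cells of a type and less RNA per cell cannot be told apart. The same 7 members were the ones whose groups did not overlap, 6 with every recombined library lower (5.91% of all loci) and 1 with every one higher (6.33%).

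Green and red cells of the same genotype were compared next, first in the fit without a replicate block. In recombined against unrecombined cells 5 members fell, Fn1, Postn, Sparcl1, Thbs2 and Spon1, and none rose, where 5.22% of all loci were called (3.08% higher, 2.14% lower). The median log2 fold change was -1.56 over the members and -0.01 over all loci. These 5 had no overlap between the groups (5.71% of all loci were lower in every recombined library and 5.57% higher). Tnc and Thbs1 did not pass here and did with the replicate number as a block over all 12 libraries. DESeq2 called the 5 and Tnc (9.69% of its loci).

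Whether red cells of the Cre genotype differed from cells without Cre was asked with the unrecombined and wild type libraries. No member passed in edgeR, nor did any of the 14039 loci (0%). With an unadjusted p under 0.05 there were 6 members, where 3.85% of all loci were called so: Fn1, Postn, Sparc, Thbs2 and Spon1 with higher values in unrecombined libraries, and Tnn with lower ones. The median log2 fold change was 0.92 over the members and 0.00 over all loci. Those 5 were higher in every unrecombined than in any wild type library (2.86% of all loci) and Tnn was lower in every one (1.55%). DESeq2 called the same 6 (0.595% of its loci), limma-voom called Postn, Tnn and Spon1 (0.128%), and edgeR on only these 2 groups called Postn and Tnn (0.0591% of its loci). Both comparisons with wild type share the wild type libraries, and both comparisons of recombined cells share the recombined libraries, so their values are set side by side below and not as independent results.

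**Figure D1:**
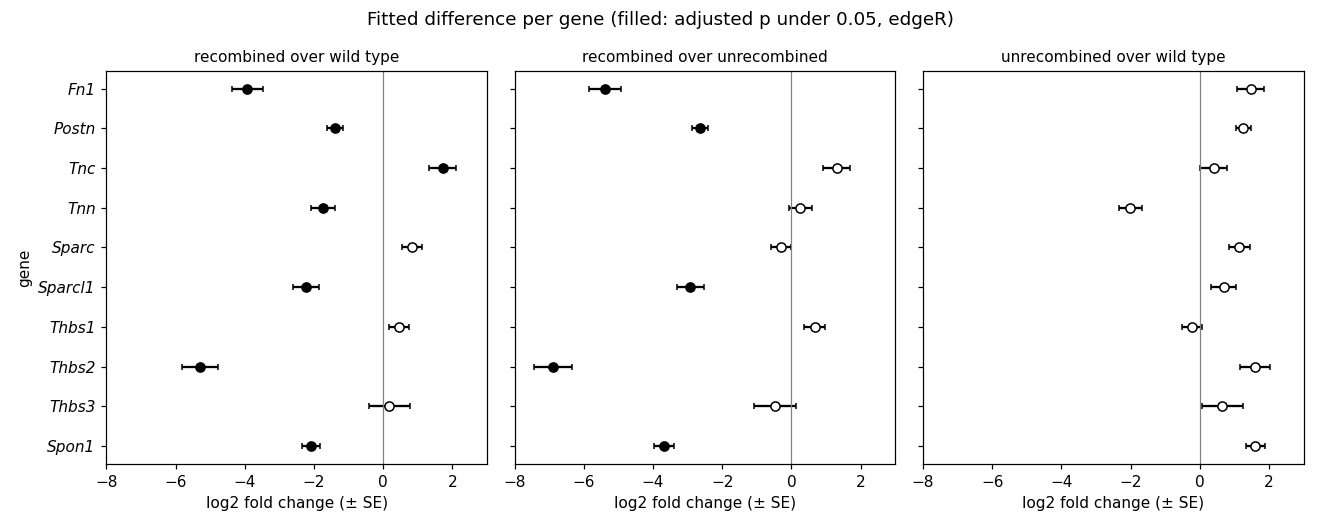
Log2 fold change (x axis, with standard error) of each gene (rows) in recombined over wild type, recombined over unrecombined and unrecombined over wild type cells, 4 libraries a group, filled where the adjusted p of edgeR was under 0.05. Thbs2 lies farthest to the left in both comparisons of recombined cells, at -5.29 and -6.89, and no point is filled in unrecombined over wild type cells.

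Fibronectin was among the members with the widest range. Fn1 (mm9 chromosome 1, 71632096) had 3.79, 14.5, 18.7 and 19.9 CPM in recombined libraries 1 to 4, 547, 450, 794 and 590 CPM in unrecombined libraries and 224, 134, 193 and 309 CPM in wild type libraries. The 3 groups did not overlap: recombined libraries were lowest, with recombined 1 below the other 3, wild type libraries lay between, and unrecombined libraries were highest. The log2 fold change was -3.92 ± 0.441 (SE, adjusted p = 0.000241) in recombined against wild type cells and -5.39 ± 0.472 (adjusted p = 1.55e-05) against unrecombined cells. Unrecombined against wild type cells differed by 1.47 ± 0.399, which did not pass in edgeR (adjusted p = 0.537) and passed with DESeq2 (0.0368).

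Periostin, a matricellular protein that binds integrins and helps cross-link collagen, followed the same order with a smaller range. Postn (chromosome 3, 54165028) had 191, 380, 321 and 426 CPM in recombined, 2102, 1721, 2564 and 1892 CPM in unrecombined and 807, 687, 937 and 1025 CPM in wild type libraries. No library of one group reached the range of another. Postn fell in both comparisons of recombined cells, with a log2 fold change of -1.39 ± 0.226 against wild type cells (adjusted p = 0.00251) and -2.65 ± 0.236 against unrecombined cells (adjusted p = 1.55e-05). It was a log2 difference of 1.26 ± 0.226 higher in unrecombined than in wild type cells, which did not pass in edgeR (adjusted p = 0.128) and did with DESeq2 (0.000515) and limma-voom (0.0328).

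Tenascin C, a large hexameric glycoprotein that weakens cell adhesion to fibronectin, went the other way from Fn1 and Postn in recombined cells. Tnc (chromosome 4, 63620818) had 51.5, 71.7, 126 and 32.8 CPM in recombined, 31.98, 39.8, 26.3 and 15.7 CPM in unrecombined and 15.7, 21.9, 32.4 and 15.8 CPM in wild type libraries. Every recombined library lay above every wild type library, though recombined 4 exceeded wild type 3 by little and lay below unrecombined 2. Tnc rose by a log2 fold change of 1.72 ± 0.398 against wild type cells (adjusted p = 0.0198). This call was lost without recombined 3 (1.28, adjusted p = 0.0585), without wild type 1, 2 or 4 (1.59, 1.73 and 1.60, adjusted p 0.0571, 0.0529 and 0.0719), without recombined 3 and 4 together (1.52, 0.0579) and in the 7 libraries low in salivary transcripts (1.94, 0.0789). Against unrecombined cells the log2 difference was 1.31 ± 0.393 (adjusted p = 0.075). With the replicate number as a block Tnc passed (1.19, adjusted p = 0.0193), and it was higher in the recombined library of each of the 4 numbers. Unrecombined and wild type cells differed by 0.41 ± 0.389 (adjusted p = 1).

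Tenascin N, also called tenascin W and known from bone and tumor stroma, was the only member of the 10 whose wild type libraries were all above those of both other groups. Tnn (chromosome 1, 162015162) had 3.49, 8.25, 3.61 and 3.67 CPM in recombined, 3.30, 4.71, 3.77 and 4.11 CPM in unrecombined and 13.8, 19.0, 19.1 and 11.8 CPM in wild type libraries. Both Cre groups overlapped each other, and recombined 2 was the highest library among them. These levels came from 67 to 225 counts per recombined library, 91 to 125 per unrecombined library and 330 to 490 per wild type library. Tnn fell by 1.74 ± 0.342 on the log2 scale in recombined against wild type cells (adjusted p = 0.00824). This call was lost without recombined 3 and 4 (-1.44, adjusted p = 0.0972). In unrecombined against wild type cells the difference was -2.00 ± 0.345, which did not pass in edgeR (adjusted p = 0.128) and passed with DESeq2 (3.53e-05), limma-voom (0.0328) and edgeR on the 2 groups (0.0446). Recombined and unrecombined cells differed by 0.26 ± 0.336 (95% interval -0.50 to 1.02, adjusted p = 0.753). Without recombined 2 that difference was -0.15. By rank of log2 fold change Tnn was 75th lowest of the 14039 loci in unrecombined against wild type cells.

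Of the SPARC family pair, Sparcl1 fell and Sparc did not pass. Sparc, a collagen-binding protein that is needed for normal collagen fibrils, had 1213, 2160, 1904 and 3218 CPM in recombined, 3061, 2138, 2926 and 2374 CPM in unrecombined and 1100, 700.2, 1146 and 1803 CPM in wild type libraries (chromosome 11, 55208002). Unrecombined libraries were all above wild type libraries, and recombined libraries overlapped both. The log2 difference of recombined from wild type cells was 0.84 ± 0.294 (95% interval 0.174 to 1.504) with an adjusted p of 0.114, and it passed without recombined 1 (1.03, 0.033) and with DESeq2 (0.0489). Recombined and unrecombined cells differed by -0.31 ± 0.292 (interval -0.97 to 0.36, adjusted p = 0.649). Unrecombined and wild type cells differed by 1.14 ± 0.295 (adjusted p = 0.46, or 0.0402 with DESeq2).

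Sparcl1, also called hevin, is a relative of Sparc. Sparcl1 (chromosome 5, 104508127) had 53.1, 28.2, 20.3 and 20.0 CPM in recombined, 359, 271, 150 and 142 CPM in unrecombined and 100.1, 109, 208 and 153 CPM in wild type libraries. Recombined libraries were below all others, and unrecombined and wild type libraries overlapped. It fell in both comparisons, with a log2 fold change of -2.23 ± 0.385 against wild type cells (adjusted p = 0.00381) and -2.92 ± 0.395 against unrecombined cells (adjusted p = 0.000541). The first call was lost without recombined 3 and 4 (-1.82, adjusted p = 0.0903). Unrecombined against wild type cells differed by 0.69 ± 0.369 (adjusted p = 1). In the first library number series this last difference was 1.24 and in the second, which has 1 wild type library, -0.06.

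**Figure D2:**
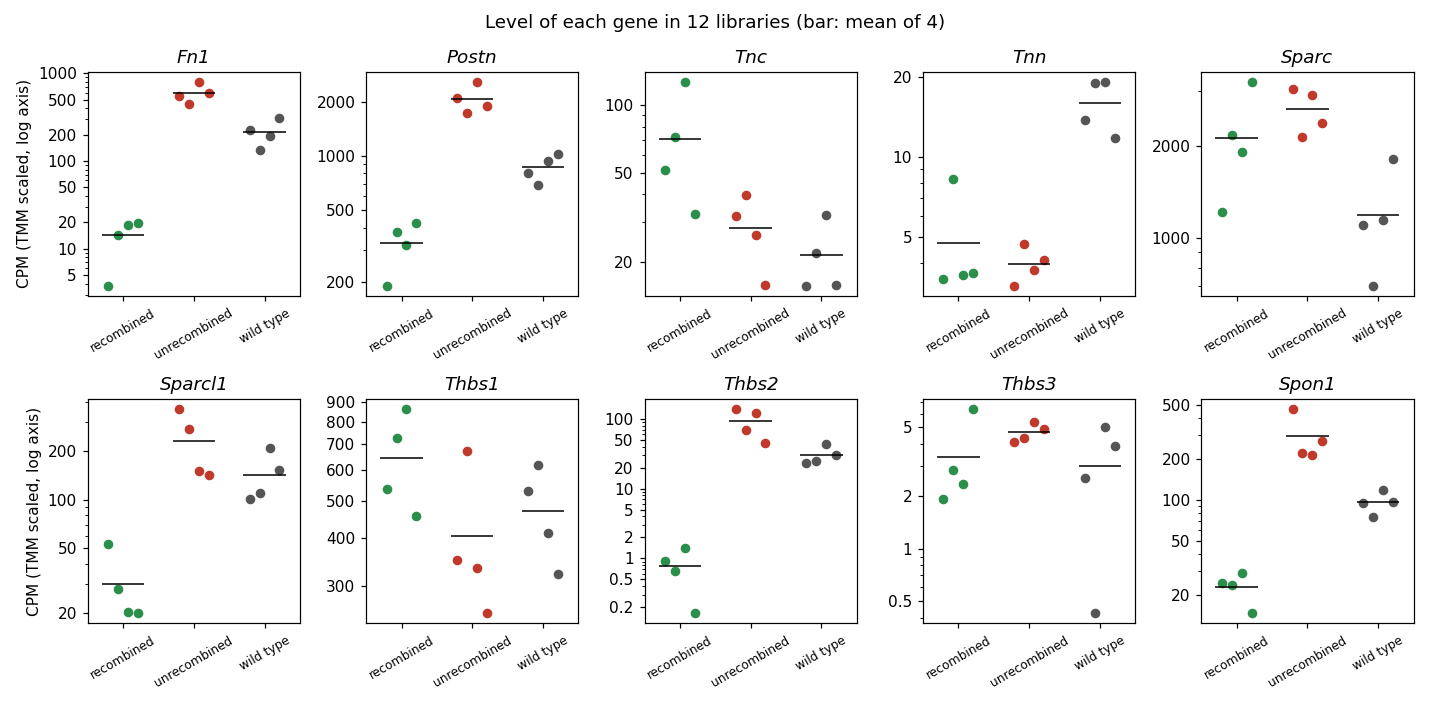
CPM of each gene (y axis, log scale, TMM scaled) in the 4 recombined, 4 unrecombined and 4 wild type libraries (x axis), with 1 point a library in order of replicate number and a bar at the group mean. Recombined libraries lie lowest for Fn1, Postn, Sparcl1, Thbs2 and Spon1, and wild type libraries stand above the others for Tnn.

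Of the thrombospondins Thbs2 fell, and Thbs1 and Thbs3 did not pass against wild type cells. Thbs1 and Thbs2 both encode trimeric proteins that restrain blood vessel growth and bind the receptors CD36 and CD47, and thrombospondin 1 can activate latent TGF-beta. Thbs2 (chromosome 17, 14802506) had 0.926, 0.660, 1.40 and 0.165 CPM in recombined, 137, 68.0, 121 and 44.9 CPM in unrecombined and 22.9, 25.2, 43.6 and 30.6 CPM in wild type libraries. The 3 groups did not overlap, and recombined libraries held 31, 18, 26 and 4 counts of it, against 651 or more in every other library. Its log2 fold change was -5.29 ± 0.522 against wild type cells (adjusted p = 0.000102) and -6.89 ± 0.555 against unrecombined cells (adjusted p = 6.91e-06), rank 59 and 34 from the lowest of all 14039 loci. It was 1.60 ± 0.426 higher in unrecombined than in wild type cells on the log2 scale, with an adjusted p of 0.514 in edgeR and 0.033 with DESeq2.

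Thbs1 (chromosome 2, 117937657) had 535, 726, 864 and 456 CPM in recombined, 352, 674, 334 and 256 CPM in unrecombined and 531, 618, 412 and 323 CPM in wild type libraries, and all groups overlapped. The log2 difference was 0.45 ± 0.297 from wild type (interval -0.22 to 1.12, adjusted p = 0.432) and 0.67 ± 0.297 from unrecombined cells (adjusted p = 0.246). With the replicate block the second passed (0.74, adjusted p = 0.0373), with higher values in the recombined library of all 4 numbers. It also passed without unrecombined 2 (1.04, 0.0433). Unrecombined and wild type cells differed by -0.22 ± 0.296 (interval -0.89 to 0.45, adjusted p = 1).

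Thbs3, a pentameric thrombospondin, was near the bottom of the family, from 11 to 154 counts a library. Thbs3 (chromosome 3, 89019108) had 1.94, 2.82, 2.37 and 6.35 CPM in recombined, 4.13, 4.33, 5.39 and 4.89 CPM in unrecombined and 2.55, 0.426, 5.02 and 3.91 CPM in wild type libraries. All 3 ranges overlapped and no comparison passed. The log2 difference of recombined from wild type cells was 0.18 ± 0.595 (interval -1.17 to 1.53, adjusted p = 0.908), an interval wide enough to hold a 2-fold difference either way.

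Spondin 1, a secreted protein with thrombospondin repeats first known from the floor plate of the spinal cord, had the group order of fibronectin. Spon1 (chromosome 7, 120909511) had 24.2, 23.5, 28.8 and 14.7 CPM in recombined, 467, 221, 216 and 274 CPM in unrecombined and 94.97, 75.1, 118 and 96.8 CPM in wild type libraries. The groups did not overlap and stood in the order recombined, wild type, unrecombined from low to high. Spon1 fell in both comparisons, with a log2 fold change of -2.08 ± 0.270 against wild type cells (adjusted p = 0.000515) and -3.69 ± 0.288 against unrecombined cells (adjusted p = 6.04e-06). The log2 difference of unrecombined from wild type cells was 1.61 ± 0.265 (adjusted p = 0.128, or 3.53e-05 with DESeq2 and 0.0328 with limma-voom).

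Within each replicate number the recombined library was compared with the unrecombined one, since same-numbered libraries of these groups deviated together. Thbs2 differed by -7.10, -6.53, -6.36 and -7.55 on the log2 CPM scale in numbers 1 to 4, Fn1 by -7.14, -4.95, -5.40 and -4.89, and Spon1 by -4.26, -3.23, -2.90 and -4.21. The differences of Postn were -3.46, -2.18, -3.00 and -2.15, and those of Sparcl1 -2.76, -3.26, -2.88 and -2.82. All 5 genes were lower in the recombined library of every number, which follows from their groups not overlapping. Sparcl1 varied least among numbers. Tnc differed by 0.69, 0.85, 2.26 and 1.06 and Thbs1 by 0.60, 0.11, 1.37 and 0.83. The replicate block was fitted over all 12 libraries, so wild type libraries shared it though their numbers were not taken as pairs. With it 7 members passed, Tnc and Thbs1 higher and the other 5 lower, and 980 loci of all did (6.98%).

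**Figure D3:**
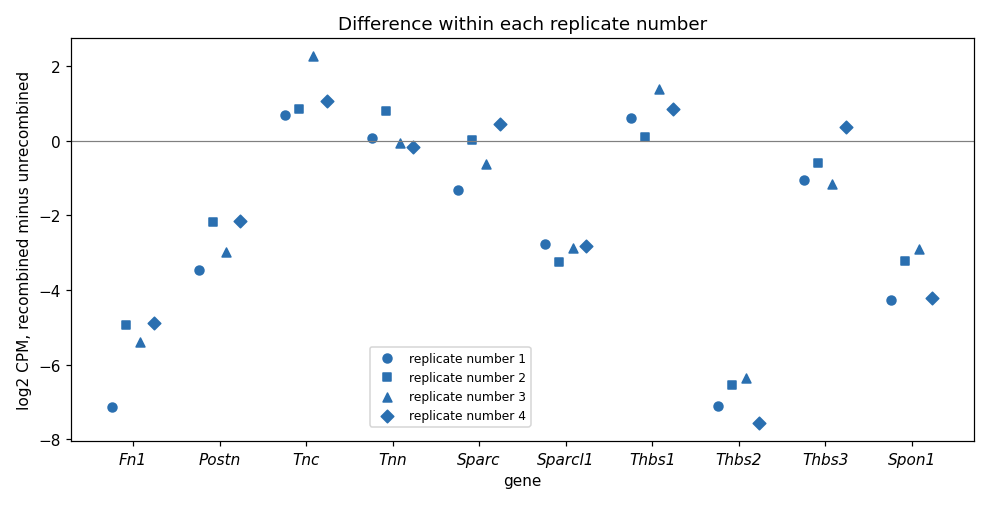
Difference in log2 CPM, recombined minus unrecombined library (y axis), for each gene (x axis), with 1 symbol for each of the 4 replicate numbers. Fn1, Postn, Sparcl1, Thbs2 and Spon1 lie below 0 and Tnc and Thbs1 above 0 in all 4 numbers, while Sparc, Tnn and Thbs3 lie on both sides.

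For every member called the groups did not overlap, so its direction within both library number series was fixed in advance. Only the sizes of the differences were compared. In recombined against wild type cells the log2 CPM differences in the first series (2 against 3 libraries) and the second (2 against 1) were -4.58 and -4.00 for Fn1, -1.58 and -1.47 for Postn, -1.65 and -1.68 for Tnn, and -1.76 and -2.92 for Sparcl1. They were -5.10 and -5.69 for Thbs2, -1.98 and -2.23 for Spon1, and 1.44 and 2.02 for Tnc. In recombined against unrecombined cells (2 against 2 in each) they were -6.05 and -5.15 for Fn1, -2.82 and -2.57 for Postn, -3.01 and -2.85 for Sparcl1, -6.81 and -6.95 for Thbs2, and -3.75 and -3.56 for Spon1. Without recombined 3 and 4, Fn1, Postn, Thbs2 and Spon1 were the 4 members still called against wild type cells, where 1.66% of all loci were called, and the same 5 members were called against unrecombined cells, where 1.88% were. In the 7 libraries low in salivary transcripts 6 members were called against wild type cells (6.92% of all loci) and 5 against unrecombined cells (3.94%). Those libraries were recombined 3 and 4, unrecombined 3 and 4 and wild type 1, 3 and 4. All Cre libraries among them are of the second series, so salivary content and series cannot be told apart there.

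Markers of fibroblasts, like Fn1, Postn, Sparcl1, Thbs2 and Spon1, were lower in recombined cells. The summed level of 12 fibroblast markers was 212 to 601 CPM in recombined, 5186 to 7348 CPM in unrecombined and 1422 to 3480 CPM in wild type libraries, and no marker was at 0 in all libraries of a group. Of these markers 11 fell and none rose in recombined against wild type cells (median log2 -4.32) and again against unrecombined cells (median -5.36). Over all loci 2.38% and 2.14% were called lower in these comparisons. In unrecombined against wild type cells none of 12 passed in edgeR and all 12 had higher values (median 1.27). The part of fibroblasts in the levels of Fn1, Postn, Sparcl1, Thbs2 and Spon1 was not tested. The log2 fold changes of single markers ranged from -5.63 (Mfap5) to -0.59 (Fbln1) against wild type cells and from -6.98 (Mfap5) to -1.16 (Fbln1) against unrecombined cells. Those of the 5 genes lay within these ranges in both comparisons. The ranges are wide, and lying within them was not a test of the part of fibroblasts.

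Basal and myoepithelial markers were higher in recombined cells, as Tnc was against wild type cells. Their summed level over 12 genes was 1797 to 7725 CPM in recombined, 403 to 1091 CPM in unrecombined and 778 to 986 CPM in wild type libraries. Of 12 markers 10 rose against wild type cells and 11 against unrecombined cells, and none fell. Over all loci 4.17% and 3.08% were called higher in these comparisons. Tnc was highest in recombined 3 and the basal sum in recombined 4, where Tnc was lowest among recombined libraries. The part of basal cells in the level of Tnc was not tested. Pericyte markers (8 genes) summed to 82.7 to 176 CPM in recombined, 99.3 to 127 CPM in unrecombined and 63.4 to 112 CPM in wild type libraries. Macrophage and dendritic cell markers (10 genes) summed to 16.7 to 26.8, 16.9 to 37.8 and 36.7 to 117 CPM in the same groups, with C1qa at 0 in all recombined libraries, and endothelial markers (10 genes) to 33.2 to 89.4, 85.0 to 159 and 71.2 to 120.05 CPM. Against wild type cells 3 of 12 luminal, 4 of 8 macrophage and 0 of 9 endothelial markers tested fell in recombined cells. Their medians were -0.98, -1.58 and -1.17. Against unrecombined cells 2, 0 and 1 fell (medians -0.82, -0.84 and -1.195). None of these rose. Of 7 pericyte markers tested, 2 rose and 1 fell against wild type cells, and 1 rose and 1 fell against unrecombined cells. Over all loci 2.38% and 2.14% were called lower.

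**Figure D4:**
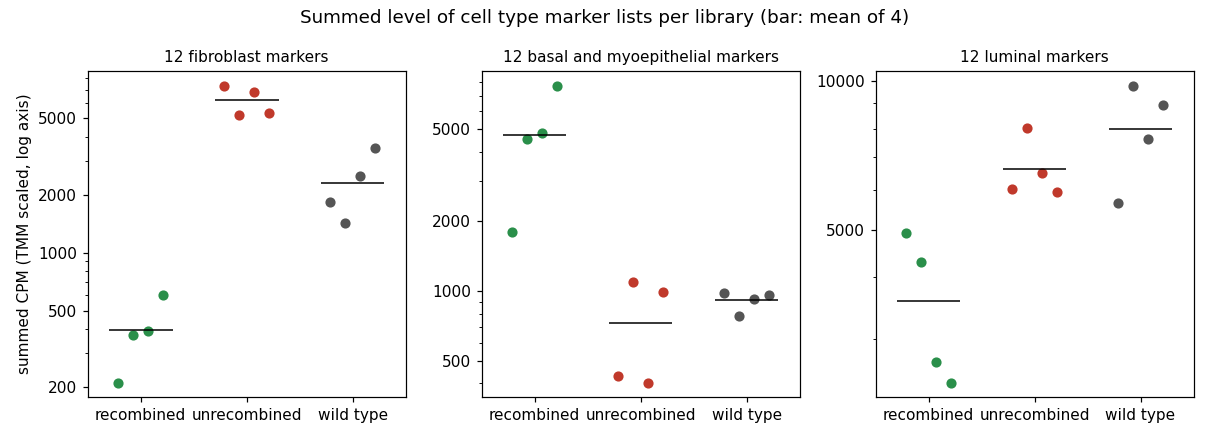
Summed CPM (y axis, log scale) of 12 fibroblast, 12 basal and myoepithelial and 12 luminal markers in the recombined, unrecombined and wild type libraries (x axis), with 1 point a library and a bar at the mean of 4. Fibroblast sums of recombined libraries lie at 212 to 601, below all others, and their basal sums at 1797 to 7725, above all others.

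Genes whose pattern over the 12 libraries was most like each member were found by the root mean square difference of log2 CPM, each gene centred on its own mean, among 7107 loci. Postn was most like the collagen VI chain Col6a2 (0.31) and the aggrecan-cleaving protease Adamts5 (0.33), against a median of 1.21 over all candidates. The nearest loci lie below such a median by construction, so here and below it only gives the scale. Fn1 was most like Serpinf1 (0.43) and Dpt, a dermal matrix protein (0.43, median 2.47), and Thbs2 like the collagen Col3a1 (0.65) and the laminin chain Lama2 (0.78, median 3.05). Dpt and Col3a1 are also among the 12 fibroblast markers. Spon1 was nearest to Zeb1 (0.46) and Col6a2 (0.48, median 1.58), and Sparcl1 to the complement genes C1ra (0.34) and Serping1 (0.45, median 1.40). Sparc was nearest to Fbn1, the main microfibril protein (0.24), and Reck (0.31, median 0.78), and Tnc to Cpm (0.39) and Ubash3b (0.40, median 0.97). Tnn was nearest to Reg3g (0.55) and Ap3m1 (0.60, median 1.04). Thbs1 was nearest to Snord104 (0.25) and Myo1c (0.26, median 0.65), and Thbs3 to Dnajc27 and Pla2r1 (both 0.41, median 1.04). Within the family the closest pair was Sparcl1 with Spon1 (0.60).

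Other matricellular genes changed in both directions. Of 25 relatives tested, recombined cells had 3 higher and 3 lower than wild type cells and 2 higher and 5 lower than unrecombined cells. Over all loci 4.17% were called higher and 2.38% lower against wild type cells, and 3.08% and 2.14% against unrecombined cells. No relative passed in unrecombined against wild type cells. The medians of the relatives were -0.33, -0.68 and 0.35, and those of all loci -0.02, -0.01 and -0.002. Ctgf, a CCN family protein counted with AK014660, had 65.7 to 141 CPM in recombined, 17.3 to 47.3 CPM in unrecombined and 22.1 to 43.2 CPM in wild type libraries, and rose by 1.67 ± 0.314 against wild type cells (adjusted p = 0.00602) and 1.72 ± 0.314 against unrecombined cells (0.00477). Spock2, a proteoglycan relative of Sparc, rose by 1.64 ± 0.255 against wild type cells (adjusted p = 0.00183). Tgfbi, a fasciclin domain relative of periostin, had 0 to 1.503 CPM in recombined, 11.9 to 23.8 CPM in unrecombined and 4.39 to 21.1 CPM in wild type libraries, and fell, with a log2 fold change of -4.64 ± 0.816 against wild type cells (adjusted p = 0.00423) and -4.98 ± 0.827 against unrecombined cells (0.00252). Ecm2 fell by 3.77 ± 0.586 against unrecombined cells (adjusted p = 0.00156). In unrecombined against wild type cells Spp1, or osteopontin (1.84, adjusted p = 0.443), Mgp (0.86, 1) and Fstl1 (1.00, 1) had the smallest p and did not pass.

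Receptors for these proteins were also counted. Of 20 tested, 4 rose and none fell in recombined cells against wild type (median 0.67) and again against unrecombined cells (median 0.16). Over all loci 4.17% and 3.08% were called higher in these comparisons, and the medians were -0.02 and -0.01. None of the 20 passed in unrecombined against wild type cells (median 0.26). Itga9, the chain of a tenascin C receptor, had 30.5 to 54.0 CPM in recombined, 12.9 to 20.95 CPM in unrecombined and 15.98 to 34.6 CPM in wild type libraries and rose by 1.47 ± 0.277 against unrecombined cells (adjusted p = 0.00565). Itga3 rose by 1.01 ± 0.255 against wild type cells (adjusted p = 0.0296) and 1.28 ± 0.257 against unrecombined cells (0.00874). Itgb8, which pairs with Itgav to bind latent TGF-beta, rose by 1.28 ± 0.224 against wild type cells (adjusted p = 0.00398). Lrp8, a lipoprotein receptor counted with AK076555, rose by 2.62 ± 0.482 against wild type cells (adjusted p = 0.00521) and 2.55 ± 0.480 against unrecombined cells (0.00582). Lrp1, an endocytic receptor that takes up thrombospondins (0.93, adjusted p = 0.46), Vldlr (0.78, 1) and Ptprz1 (1.10, 1) had the smallest p in unrecombined against wild type cells and did not pass.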

How the data were processed

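RNA counts of 12 libraries in 3 groups of 4 were analysed. The authors aligned and counted with STAR and HTSeq 0.3.1 on mm9, as the submitters' processing notes list them; options, strand setting and annotation are not given in the sources used here, so overlapping and antisense genes cannot be told apart. The deposited table holds raw read counts made by the authors, all whole numbers, whose totals differ between libraries. Of its 36635 entries, 16521 name several loci, held 0.0617% to 0.101% of the counts and were left out. Scaling was by TMM (trimmed mean of M values) and testing by edgeR 4.0.16 (R 4.3.3) in 1 quasi-likelihood fit of 12 libraries with robust dispersion, the default filter on low counts and Benjamini-Hochberg adjustment over 14039 loci (two-sided, threshold 0.05). Adjusted p values are from this test unless DESeq2 1.42.0 or limma-voom (limma 3.58.1) is named. Log2 CPM used a prior count of 2, and 95% intervals used the SE with 9 degrees of freedom.

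Recombined and unrecombined libraries of the same number deviated together across loci (r of 0.239 to 0.399, other pairs -0.24 to -0.0345). These numbers were therefore taken as pairs in the differences within replicate numbers. Those with wild type were not (-0.0314 to 0.185 and 0.00248 to 0.312). The main fit had no replicate block and did not use the pairing. Exon lengths came from GENCODE M21 and served only as lengths. Named genes were the 10 members, the 3 relatives and 3 receptors with the smallest p in each comparison, and the 2 loci most like each member, among loci averaging 2 or more on the log2 CPM scale. Alternatives were other scalings, tests and filters, fewer groups, the replicate block, the library number series, and libraries left out. The members, lists and alternatives were chosen with earlier results of these data known.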

Additional observations from a re-analysis of the deposited data

Results flagged for a closer look

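Tnn in recombined library 2, at 8.25 CPM, stood apart from the other 3 recombined libraries (3.49 to 3.67 CPM) by Dixon's test. Of 30 groups of 4 tested for members this was the only one, where chance gives about 1 in 20. Among summed marker levels, the endothelial sum of wild type 1 (71.2 CPM, others 114.8 to 120.0) stood apart. So did the salivary gland sums of recombined 2 (18862 CPM), unrecombined 2 (90312 CPM) and wild type 2 (40714 CPM). Recombined 2 is thus both the library with the highest Tnn of its group and one with salivary transcripts. Whether the 2 values are related was not tested. Entries that name a member together with a second locus, which the comparisons did not use, held 81 counts in all over 12 libraries and at most 14 in a library.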

How the results depend on the processing

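Fn1, Postn, Thbs2 and Spon1 kept their calls in recombined against wild type cells under all 23 alternatives (largest adjusted p 0.0212), and these 4 with Sparcl1 kept theirs against unrecombined cells under all 24 (0.0249). The members called against wild type were 7, and 4 without recombined 3 and 4 together, where Tnn (-1.44, adjusted p = 0.0972), Sparcl1 and Tnc were lost. With single libraries left out they were 6 to 8. In unrecombined against wild type cells, members called were 6 with DESeq2, 3 with limma-voom and 2 with only the groups compared, against 0 in the main test. With the replicate block 7 members and 980 loci were called in recombined against unrecombined cells, and 7 and 984 with only those 2 groups. It called 7 members and 1194 loci in recombined against wild type cells and 0 members and 1 locus in unrecombined against wild type cells. Over all loci, the 920 called against wild type became 1617 with DESeq2, 594 with only the groups compared, 248 without recombined 3 and 4, and 502 to 1217 with single libraries left out (612, 600 and 502 without wild type 2, 3 and 4). The 733 called against unrecombined cells became 1349 with DESeq2, 282 without recombined 3 and 4, and 449 to 1044 with single libraries left out (449 without unrecombined 1). The 0 of unrecombined against wild type cells became 78 with DESeq2, 18 with limma-voom and 8 with only the groups compared. Signs turned only for differences that had not passed. These were Thbs3 against wild type without recombined 4 (-0.32), without wild type 2 (-0.18) and without recombined 3 and 4 (-0.32), and Tnn against unrecombined cells without recombined 2 (-0.15) and in the 7 libraries low in salivary transcripts (-0.0896). In those 7 libraries Sparcl1 (-0.0647) and Tnc (-0.00885) also turned in unrecombined against wild type cells. With single libraries left out, Thbs3 ranged from -0.32 to 0.55 and Tnn from -0.15 to 0.39 in these comparisons. Causes were not tested. The 7-library set and the 2-group block were chosen after seeing the data. Low counts limit Thbs3, Tnn and, in recombined libraries, Thbs2.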
